A study of Mus musculus with 6 samples.

Results

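The type I interferon response genes of 4T1 cells are 38 genes that encode interferon-beta, the factors that carry its signal, cytosolic sensors of foreign RNA and the effector proteins that interferon induces. They were taken by symbol, and all 38 were found among the 56748 Ensembl identifiers of the deposited tables. RNA was measured by sequencing in 3 treated and 3 control samples of 4T1, a mouse mammary carcinoma line labelled WT. Treated cells were grown for 24 h, held overnight with 125 µg/mL of Au/MoS2/Bi2S3 particles, a heterojunction material for photothermal and photodynamic treatment, exposed to NIR light for 8 min and washed 24 h later. Control cells came from the control group and, like the treated ones, were collected at 48 h. The labels do not say whether controls received light. The series' design text says that RNA from 3 individuals was pooled, no label names separate cultures, and p-values here speak of the spread among these samples, which may be technical. Cells given particles alone or light alone were not analysed here.

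Type I interferon is released when a cell detects nucleic acid of a virus, or its own nucleic acid in the wrong compartment. RIG-I (Ddx58) and MDA5 (Ifih1) bind duplex RNA in the cytosol and signal through MAVS and the kinase TBK1 to the factors IRF3 and IRF7, which switch on the interferon genes. Secreted interferon acts through the receptor IFNAR and the kinases JAK1 and TYK2 on a complex that holds STAT2 and IRF9. That complex binds the interferon-stimulated response element (ISRE) in the promoters of effector genes such as Isg15, Mx1, the Ifit genes and the Oas genes. Most of the sensors are themselves induced in this way.

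The libraries held between 32595806 and 38076148 reads at genes, worked back from the deposited FPKM (fragments scaled to exon length and a depth per library). The depth implied by these FPKM exceeded the reads at genes in every treated sample and fell short of them in every control. Every FPKM and ratio of FPKM below carries this difference, whose cause was not tested. Scaling by library size moved the median log2 fold change of all genes tested from -0.01 to 0.60. The FPKM of a library summed to between 235757 and 241953 in treated and between 450409 and 532583 in control samples. Between replicates the median SD of a gene was 0.07 in treated and 0.27 in control samples on the log2(FPKM + 1) scale. Log2 fold changes of all genes tested moved with level and with length: their median was -0.93 in the most abundant 10% and 0.52 in the least abundant 10%, and -0.64 in the shortest 10% and 0.33 in the longest 10%. A detrended fit, in which the dependence of fold change on GC content, exon length and level over all genes was taken out, was therefore run beside the fit on the deposited values. Of 8 leukocyte markers, Itgam and Adgre1 were at 0 in every library, and Ptprc, Cd3e, Lyz2 and Siglech did not pass 0.0649 FPKM in any. Cd68 alone carried that list, whose summed level was between 241.5 and 259.7 FPKM in treated and between 77.0 and 444.2 FPKM in control samples. Of 8 epithelial markers, Krt8, Krt18 and Krt19 stood at 123 FPKM or more in every library, whereas Cdh1 did not exceed 0.0989 FPKM. The epithelial sum was between 741.5 and 777.0 FPKM in treated and between 1536 and 2262 FPKM in control samples, and its 4 tested genes were all lower. Of 5 fibroblast markers, Col1a1 carried the sum, at 30.6 to 32.97 FPKM in treated and 114.1 to 756.5 FPKM in control samples, while Col1a2 did not exceed 0.0305 FPKM. The 3 endothelial markers summed to 1.73 FPKM or less in every library. The part of these differences in the results was not tested. RNA was taken from cells in bulk, so fewer cells of a kind and less RNA per cell cannot be told apart.

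All 4 RNA sensors that could be tested rose in treated cells, 1 factor rose and 1 fell, and of the tested effectors 5 rose and 3 fell. Interferon-beta itself was not detected beyond 1 read. Genes were tested where 3 or more of the 6 libraries reached 1 FPKM, and called at an adjusted p under 0.05 (limma on log2(FPKM + 1), Benjamini-Hochberg adjustment over all 11118 genes tested). Of the 38 genes 22 were tested, of which 10 were higher in treated samples, 4 were lower and 8 were not called. Among all genes tested 27.9% were called higher and 28.3% lower. Ifih1, Ifit2, Trim30a and Xaf1 entered the test through the treated libraries alone, since none of their controls reached 1 FPKM, and so had to be higher there. Of the 18 genes with at least 1 control at that level, 6 were higher and 4 lower. Without control 2, 10 of the 22 were higher and 7 lower, where 32.3% of all genes tested were higher and 32.7% lower. The median log2 fold change was 0.19 over the 22 genes and -0.01 over all genes tested.

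All 38 genes were above 0 in at least 1 library. In a fit with no filter on low values, which takes in 27756 genes, 14 of the 38 were higher and 3 lower, where 14.7% of all genes were called higher and 9.80% lower. Every treated sample lay above every control for 20 of the 38 genes and below for 4. Over the same 27756 genes these shares were 24.4% and 15.9%. The plot of fold changes shows the 22 tested genes by role.

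**Figure D1:**
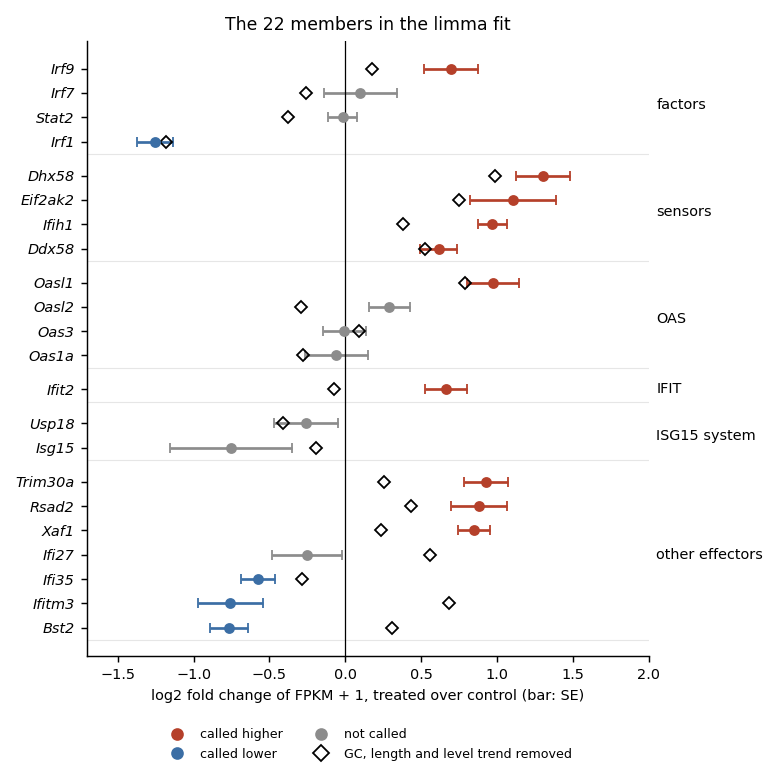
Log2 fold change of FPKM + 1, treated over control, for the 22 tested genes grouped by role (filled points, bars are SE, limma on 3 treated and 3 control samples), with red for called higher, blue for called lower and grey for not called. Open diamonds give the detrended fold change. The 4 sensors stay to the right of 0, while Ifit2, called higher, and Bst2 and Ifitm3, called lower, cross it. Irf7, Oas3, Oasl2 and Ifi27, not called, cross it too.

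Promoters were read to see which of these genes carry the element that the pathway acts on. Windows from 250 bases before to 50 bases after the start were on hand for 28 of the 38 genes (RefSeq, GRCm38.p6). The ISRE core was searched as GAAA, 2 free bases and GAAA, and the gamma-activated site (GAS), an element of the interferon-gamma response, as TTCNNNGAA, each on both strands and with matches free to overlap. An ISRE core stood in the window of 15 of the 28 genes, against 3.44% of 32851 windows of all genes, and a GAS in 7 of the 28, against 8.30%. A gene counted if any of its windows held the motif, while the percentages count single windows, so the measures differ for genes with more windows. The ISRE core was found for 5 of 9 genes called higher, 2 of 4 called lower and 4 of 6 tested but not called, so genes with it stood in all 3 classes. The GAS was found for 2 of 9 genes called higher, 4 of 4 called lower and 1 of 6 tested but not called. No test was run between the classes. All 3 sensors with a window held an ISRE core, and the window of Isg15 held 3 overlapping matches of it. Sequences are printed for the genes with the smallest p in each direction that hold a motif, 5′ to 3′ along the gene, with matches in capitals. Ifih1 and Trim30a were called higher, Irf1 and Bst2 lower. For Ifih1 the match lies after the start and 30 bases around it are given (chr2:62646206-62646235, minus strand). For the others the 250 bases before the start are given (Trim30a chr7:104465194-104465443, minus strand; Irf1 chr11:53769764-53770013, plus strand; Bst2 chr8:71537473-71537722, minus strand).
Ifih1: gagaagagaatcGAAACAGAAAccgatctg
Trim30a: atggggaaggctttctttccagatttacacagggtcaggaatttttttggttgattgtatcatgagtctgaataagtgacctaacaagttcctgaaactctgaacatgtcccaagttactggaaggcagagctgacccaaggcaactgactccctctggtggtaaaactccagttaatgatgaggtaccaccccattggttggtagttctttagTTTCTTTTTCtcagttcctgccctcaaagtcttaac
Irf1: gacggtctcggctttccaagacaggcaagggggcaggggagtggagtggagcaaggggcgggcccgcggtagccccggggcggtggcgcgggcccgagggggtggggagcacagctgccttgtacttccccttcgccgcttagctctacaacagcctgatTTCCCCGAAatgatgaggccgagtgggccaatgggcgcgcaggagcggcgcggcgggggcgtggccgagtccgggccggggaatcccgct
Bst2: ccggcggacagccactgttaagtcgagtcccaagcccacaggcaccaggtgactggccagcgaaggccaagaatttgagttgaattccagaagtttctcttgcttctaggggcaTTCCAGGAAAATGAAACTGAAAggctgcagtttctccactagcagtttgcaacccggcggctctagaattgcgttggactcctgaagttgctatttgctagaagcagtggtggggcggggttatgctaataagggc
In Bst2 the capitals cover a GAS and 2 ISRE cores that overlap each other, in Irf1 a GAS, and in Trim30a an ISRE core on the opposite strand. A match is a run of letters and not a shown site of binding.

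Interferon-beta was next to absent. Ifnb1 (chromosome 4, 88522025 to 88522774, minus strand) had 0 FPKM in treated 1 and 2 and 0.0301 FPKM in treated 3, which is 1 read, and 0 FPKM in all 3 controls. A count of 0 allows up to 0.181 FPKM in treated 2 and up to 0.341 FPKM in control 3 (3 read pairs, counting error only), so a lower level was not detectable at this depth. Of 20 other interferon genes (the Ifna and Ifnl genes, Ifnab, Ifne, Ifnk, Ifnz and Ifng), none passed the filter and 16 were at 0 in every library. Ifnab had 6 reads in each of treated 1 and treated 3 and Ifnz 8 reads in treated 3, with none in controls. Ifnk had 0 reads in every treated library, against 6 reads in control 1 and 4 in control 2, and Ifng had 2 reads in each of treated 2 and treated 3, against 4 reads in control 1.

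Of the 5 RNA sensors 4 were tested and rose. Ifih1 was among them through its treated libraries alone, Eif2ak2 lost its call in several alternatives, and Zbp1 was not tested. Ifih1, which encodes MDA5, the sensor of long duplex RNA, lies on chromosome 2 (62595798 to 62646255, minus strand) and holds the ISRE core printed above. Ifih1 had 1.92, 1.98 and 2.20 FPKM in treated samples, against 0.446, 0.552 and 0.648 FPKM in controls. The groups did not overlap, which follows from the way Ifih1 passed the filter. The values rest on 704 to 793 reads in treated and 114 to 143 reads in control libraries. Its mean was 3.70-fold higher (log2 fold change 0.97 ± 0.09 SE, limma adjusted p = 0.000566). Dhx58 (chromosome 11, 100694884 to 100704271, minus strand) encodes LGP2, a helicase that tunes signalling by the other two sensors. Dhx58 had 3.66, 3.62 and 4.06 FPKM in treated samples, against 0.928, 1.46 and 0.535 FPKM in controls. Control 2 was the highest control and still lay below every treated sample. The mean was 3.89-fold higher (1.30 ± 0.18 SE, limma adjusted p = 0.00178).

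Ddx58 (chromosome 4, 40203773 to 40239828, minus strand), which encodes RIG-I, was the most abundant of the sensors in both groups on the per-length scale of FPKM. It had 11.3, 11.3 and 11.8 FPKM in treated samples, against 6.78, 8.41 and 6.38 FPKM in controls, a 1.59-fold difference of means (0.61 ± 0.12 SE, limma adjusted p = 0.00718). Eif2ak2 (chromosome 17, 78852564 to 78882573, minus strand) encodes PKR, a kinase that halts translation on binding duplex RNA. It had 6.32, 5.91 and 5.84 FPKM in treated samples, against 3.21, 3.05 and 1.04 FPKM in controls, with control 3 far below the other controls. The mean was 2.48-fold higher (1.10 ± 0.29 SE, limma adjusted p = 0.0178), and the call was lost without treated 1, 2 or 3 (limma adjusted p between 0.0530 and 0.0607). Zbp1, the sensor of left-handed nucleic acid that can trigger necroptosis, stayed under the filter. It had 0.0504, 0.0513 and 0.167 FPKM in treated samples, against 0.109, 0.0179 and 0.290 FPKM in controls, and the groups overlapped.

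In the detrended fit Ifih1, Ddx58 and Dhx58 remained called higher, with log2 fold changes of 0.38, 0.53 and 0.99 (limma adjusted p = 0.0360, 0.0121 and 0.00854), and Eif2ak2 stood at 0.75 (limma adjusted p = 0.0566). Of the called genes, Ifih1, Ddx58, Dhx58 and Oasl1 kept their call in every alternative that tested them. That was all 17 for Ddx58 and 16 for each of the others. For Ifih1 this adds little, since it passed the filter through the treated libraries alone and most alternatives keep that filter. The plot of sensors and factors gives each sample.

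**Figure D2:**
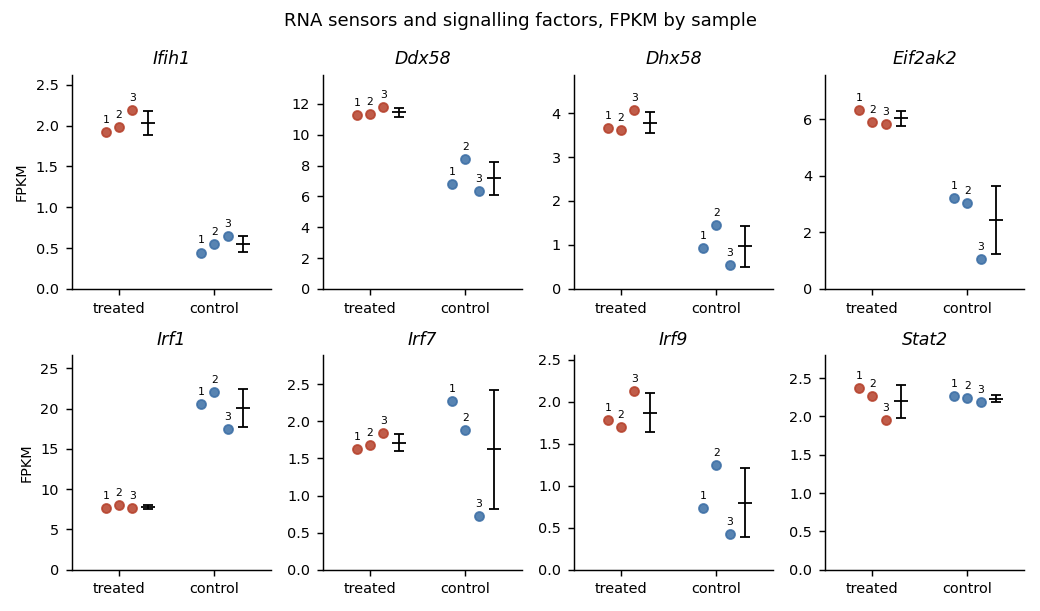
FPKM of 4 RNA sensors (top row) and 4 signalling factors (bottom row) in 3 treated (red) and 3 control (blue) samples of 4T1 cells; digits are replicate numbers, and the black bar is the mean with its SD. The groups do not overlap for the 4 sensors (for Ifih1 this follows from the filter) and for Irf1 and Irf9, while Irf7 and Stat2 overlap.

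The factors went different ways. Irf1 (chromosome 11, 53770014 to 53778374, plus strand), a transcription factor induced by interferon-gamma, whose window holds the GAS match printed above, had 7.70, 8.03 and 7.66 FPKM in treated samples, against 20.6, 22.05 and 17.5 FPKM in controls. All treated samples lay below all controls. Its mean was 2.57-fold lower (log2 fold change -1.25 ± 0.12 SE, limma adjusted p = 0.000542), and its detrended log2 fold change was -1.18. On a common total (TPM), which moves the median of all genes to 0.92, Irf1 stood at -0.35 and was not called (limma adjusted p = 0.110). Irf9 (chromosome 14, 55603571 to 55610030, plus strand), the DNA-binding part of the complex with STAT2, had 1.78, 1.70 and 2.13 FPKM in treated samples, against 0.736, 1.24 and 0.420 FPKM in controls. It was called higher (0.70 ± 0.18 SE, limma adjusted p = 0.0175), but not without treated 1, treated 3 or control 1 (limma adjusted p = 0.0517, 0.0657 and 0.0583), nor with no filter on low values (0.0582), with quantile normalization (0.32, limma adjusted p = 0.0829) or in the detrended fit (0.18, limma adjusted p = 0.455).

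Stat2, the partner of IRF9, had 2.37, 2.26 and 1.96 FPKM in treated samples, against 2.27, 2.24 and 2.18 FPKM in controls (-0.02 ± 0.09 SE, limma adjusted p = 0.886). The groups overlapped, and in the detrended fit Stat2 was called lower (-0.38, limma adjusted p = 0.0172). Irf7, the factor that amplifies interferon-alpha production, had 1.62, 1.68 and 1.84 FPKM in treated samples, against 2.27, 1.88 and 0.723 FPKM in controls (0.10 ± 0.24 SE, limma adjusted p = 0.746). Its controls lay on both sides of the treated samples.

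Of the listed genes of the ISG15 system, which attaches and removes the ubiquitin-like protein ISG15, Isg15 and Usp18 were tested and not called. Isg15 (chromosome 4, 156199424 to 156200818, minus strand), which encodes the modifier, had 10.4, 9.20 and 8.13 FPKM in treated samples, against 17.5, 8.39 and 28.5 FPKM in controls (-0.76 ± 0.40 SE, limma adjusted p = 0.154). Control 3 was more than 3 times control 2, and the treated samples lay around the lowest control. Usp18, the protease that removes ISG15 and damps the interferon receptor, had 4.31, 4.36 and 4.10 FPKM in treated samples, against 5.44, 3.67 and 7.27 FPKM in controls (-0.26 ± 0.21 SE, limma adjusted p = 0.331). Without control 2 both were called lower (Isg15 -1.20, limma adjusted p = 0.00633, and Usp18 -0.47, 0.0259). Herc6, the ISG15 ligase of mice, was under the filter at 0.424, 0.348 and 0.428 FPKM in treated samples, against 0.330, 0.160 and 0.188 FPKM in controls. The groups did not overlap, and in the fit with no filter Herc6 was not called (0.19, limma adjusted p = 0.124).

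The OAS family includes the enzymes that make 2′-5′ oligoadenylate, the messenger that activates RNase L, and sits in clusters on chromosome 5. Oasl1 (114923240 to 114937915, plus strand), which in mice restrains translation of Irf7, was the family member that rose. It had 3.43, 2.83 and 3.35 FPKM in treated samples, against 1.68, 1.04 and 0.785 FPKM in controls (2.74-fold, 0.97 ± 0.17 SE, limma adjusted p = 0.00403). Its neighbour Oasl2 (114896936 to 114912234, plus strand) had 1.10, 1.10 and 1.12 FPKM in treated samples, against 0.506, 0.633 and 1.07 FPKM in controls. The groups did not overlap, but the gene was not called (0.29 ± 0.13 SE, limma adjusted p = 0.108), and without control 3 it was (0.42, limma adjusted p = 0.00560).

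Oas3, the most abundant of the family, had 12.3, 11.5 and 10.8 FPKM in treated samples, against 10.3, 10.8 and 13.96 FPKM in controls (-0.01 ± 0.14 SE, limma adjusted p = 0.974). Oas1a had 1.58, 1.54 and 1.58 FPKM in treated samples, against 1.12, 1.46 and 2.67 FPKM in controls (-0.06 ± 0.21 SE, limma adjusted p = 0.823). Control 3 was the highest sample for both genes, and both pairs of groups overlapped. Oas1g was under the filter at 0.409, 0.425 and 0.580 FPKM in treated samples, against 0.396, 0.377 and 0.511 FPKM in controls, and the groups overlapped. Oas1a and Oas1g share 47.6% and 36.9% of their 75-base stretches with other genes, mostly with each other, so the division of reads between them is uncertain. Oas2 had 2 reads in each treated library and 0 in each control, which is at or under what a count of 0 allows.

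IFIT proteins bind viral RNA lacking the marks of host messages, and their genes lie side by side on chromosome 19. Ifit2 (34550694 to 34576419, plus strand) was the one above the filter, at 1.04, 1.04 and 1.20 FPKM in treated samples, against 0.374, 0.0964 and 0.522 FPKM in controls (3.30-fold, 0.66 ± 0.14 SE, limma adjusted p = 0.00759). It was not called in the detrended fit (-0.07, limma adjusted p = 0.757) or with quantile normalization (0.21, limma adjusted p = 0.405). Ifit1 had 0.0670, 0.0596 and 0.0766 FPKM in treated samples, against 0 FPKM in all 3 controls. That is 24 reads over the treated libraries against none, and its treated mean was at least 2.59-fold higher than the level that 3 read pairs over the control group allow. In the fit with no filter Ifit1 was called higher (limma adjusted p = 0.00717).

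Ifit3 had 0.153, 0.0519 and 0.0518 FPKM in treated samples, against 0, 0.0361 and 0 FPKM in controls. Ifit3b had 0, 0.0339 and 0.0452 FPKM in treated samples, against 0 FPKM in all controls, with 7 reads over the treated group. Neither was called with no filter (limma adjusted p = 0.164 and 0.250). The pair shares 41.1% and 35.7% of 75-base stretches with other genes, mostly with each other, and cannot be separated with certainty.

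Among the other effectors, 3 rose. Rsad2 (chromosome 12, 26442746 to 26456452, minus strand) encodes viperin, which makes a chain-terminating nucleotide against viral polymerases. It had 3.46, 3.25 and 3.64 FPKM in treated samples, against 1.23, 0.997 and 2.18 FPKM in controls (2.35-fold, 0.88 ± 0.18 SE, limma adjusted p = 0.00811). Xaf1 (chromosome 11, 72301629 to 72313733, plus strand), a binding partner of the apoptosis inhibitor XIAP, had 1.51, 1.52 and 1.91 FPKM in treated samples, against 0.361, 0.504 and 0.546 FPKM in controls (3.50-fold, 0.85 ± 0.10 SE, limma adjusted p = 0.00119). Trim30a (chromosome 7, 104409025 to 104465193, minus strand), a TRIM ligase that curbs inflammatory signalling in mice, had 2.22, 1.55 and 1.73 FPKM in treated samples, against 0.645, 0.568 and 0.260 FPKM in controls (3.74-fold, 0.93 ± 0.15 SE, limma adjusted p = 0.00273). All treated samples of these genes lay above all controls. For Xaf1 and Trim30a this follows from the filter, which they passed through the treated libraries alone. In the detrended fit none of the 3 was called (0.43, 0.24 and 0.26, limma adjusted p = 0.131, 0.0952 and 0.135).

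Bst2 and Ifitm3 fell on the deposited scale. Bst2 (chromosome 8, 71534255 to 71537456, minus strand), or tetherin, which holds budding virus at the cell surface, had 48.8, 48.4 and 40.3 FPKM in treated samples, against 76.2, 75.3 and 83.9 FPKM in controls (1.71-fold lower, -0.77 ± 0.13 SE, limma adjusted p = 0.00336). Ifitm3 (chromosome 7, 141009586 to 141010770, minus strand), which blocks virus entry at the endosome, was the most abundant of the 38 genes in both groups. It had 212.2, 234.9 and 236.7 FPKM in treated samples, against 301.9, 510.6 and 372.0 FPKM in controls (1.73-fold lower, -0.76 ± 0.22 SE, limma adjusted p = 0.0249). The groups of both genes did not overlap. Neither fall was kept in the detrended fit, with log2 fold changes of 0.31 for Bst2 and 0.68 for Ifitm3 (limma adjusted p = 0.0701 and 0.0335, the second called higher), or with quantile normalization (0.03 and 0.37, neither called). Under scaling by library size Bst2 stood at -0.031 and Ifitm3 at -0.013 (limma adjusted p = 0.834 and 0.964). Under a common total they stood at 0.22 and 0.24 (limma adjusted p = 0.143 and 0.376). Neither gene was called under either scaling. Less the median of all genes under each of these scalings, Bst2 stood at -0.63 and -0.69 and Ifitm3 at -0.61 and -0.68. Ifitm3 was also not called without treated 1, 2 or 3 (limma adjusted p between 0.0714 and 0.0918).

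Ifi35 (chromosome 11, 101448407 to 101458698, plus strand), a leucine zipper protein of the response, had 9.03, 8.90 and 8.13 FPKM in treated samples, against 12.1, 13.8 and 14.5 FPKM in controls (1.55-fold lower, -0.58 ± 0.11 SE, limma adjusted p = 0.00598, and a detrended -0.29, not called). Its exons overlap the antisense gene Gm11626, as those of Irf1, Irf7, Dhx58, Eif2ak2, Oasl1 and Usp18 overlap other antisense genes, and reads of such partners cannot be told apart where the strand setting is not given. Exons of Irf9, Herc6, Parp14 and Rtp4 overlap another gene on the same strand, which leaves the division of those reads uncertain. Ifi27, a small hydrophobic protein of the response, had 46.8, 44.1 and 45.5 FPKM in treated samples, against 55.1, 39.3 and 74.2 FPKM in controls, and the groups overlapped (-0.25 ± 0.23 SE, limma adjusted p = 0.382). Without control 2 it was called lower (-0.48, limma adjusted p = 0.0350). In the plot of effectors the SD was smaller in treated than in control samples for 9 of the 12 genes, and not for Bst2, Trim30a and Xaf1.

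**Figure D3:**
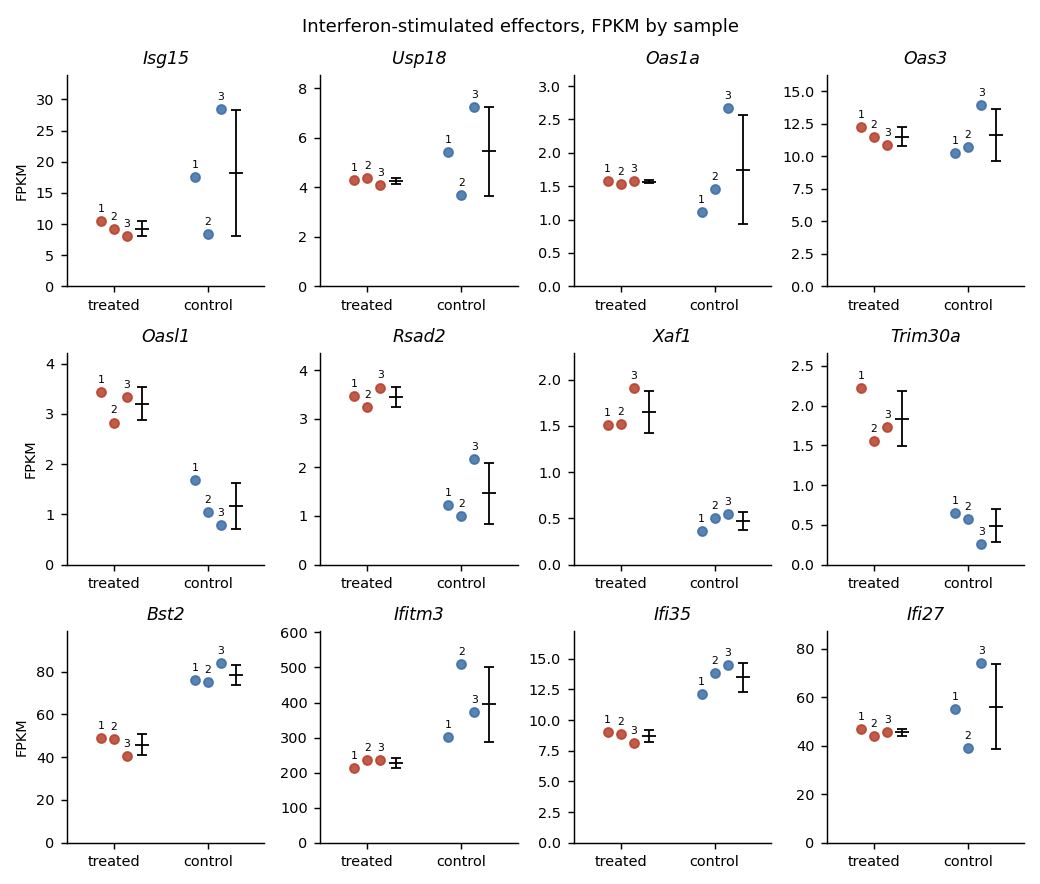
FPKM of 12 interferon-stimulated effectors in 3 treated (red) and 3 control (blue) samples; digits are replicate numbers, and the black bar is the mean with its SD. Oasl1, Rsad2, Xaf1 and Trim30a lie higher and Bst2, Ifitm3 and Ifi35 lower in treated samples, and Isg15, Usp18, Oas1a, Oas3 and Ifi27 overlap, each with control 3 as the highest sample.

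The other 8 effectors were under the filter, and 4 of them were called higher in the fit with no filter. Parp14, an ADP-ribosyltransferase, had 1.09, 0.997 and 1.04 FPKM in treated samples, against 0.247, 0.230 and 0.197 FPKM in controls (4.63-fold, limma adjusted p = 0.00371 with no filter). Samd9l, an antiviral restriction factor, had 0.640, 0.617 and 0.8996 FPKM in treated samples, against 0.236, 0.291 and 0.275 FPKM in controls (2.69-fold, limma adjusted p = 0.0249 with no filter). For both genes the groups stood apart by more than the range within either. Ifi44 had 0.152, 0.126 and 0.0922 FPKM in treated samples, against 0.0417, 0.0206 and 0 FPKM in controls, on 25 to 42 reads in treated and 0 to 8 reads in control libraries (limma adjusted p = 0.0217 with no filter). Rtp4, a chaperone of membrane receptors, had 0.167, 0.287 and 0.308 FPKM in treated samples, against 0.120, 0 and 0 FPKM in controls (limma adjusted p = 0.0384 with no filter). That was 16 to 29 reads in treated and 0 to 8 reads in control libraries.

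The remaining 4 were not called. Cmpk2, a nucleotide kinase encoded next to Rsad2, had 0.305, 0.277 and 0.402 FPKM in treated samples, against 0.0461, 0.0303 and 0.246 FPKM in controls, with no overlap of the groups (limma adjusted p = 0.0877 with no filter). Mx1, a dynamin-like GTPase against influenza viruses in mice, had 0.172, 0.121 and 0.174 FPKM in treated samples, against 0.133, 0.0374 and 0.228 FPKM in controls. Its relative Mx2 had 0.197, 0.301 and 0.238 FPKM in treated samples, against 0.239, 0.157 and 0.673 FPKM in controls. Both pairs of groups overlapped, with control 2 lowest and control 3 highest. Ifi27l2a had 0.529, 0.391 and 0.146 FPKM in treated samples, against 0.828, 3.13 and 0 FPKM in controls, and control 2 alone held 46 of its reads.

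Set side by side, the 4 tested sensors had a median log2 fold change of 1.04, the 4 tested factors 0.04 and the 14 tested effectors -0.03. The sensors include Ifih1, and the effectors Ifit2, Trim30a and Xaf1, which passed the filter through the treated libraries alone. Over every gene of each role in the fit with no filter the medians were 0.97, 0.01 and 0.07. The detrended medians of the tested genes were 0.64, -0.32 and 0.16. Of the 28 effectors 5 rose, 3 fell, 6 were not called and 14 were under the filter. No test was run between the roles. Level moved with these values: over the 22 tested genes the rank correlation of log2 fold change with mean level was -0.66 and with exon length 0.51, against -0.44 and 0.29 over all genes tested, as descriptions of genes that share the same 6 libraries. In the plot of fold change against level, most genes that rose lie at the scarce end and Ifitm3, Bst2 and Ifi27 at the abundant end. At middle levels Ddx58 rose, while Irf1 and Isg15 lay below 0. In the detrended fit 5 of the 22 genes were called higher (Ifih1, Ddx58, Dhx58, Oasl1 and Ifitm3) and 2 lower (Irf1 and Stat2), where 22.6% of all genes were called higher and 23.1% lower.

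**Figure D4:**
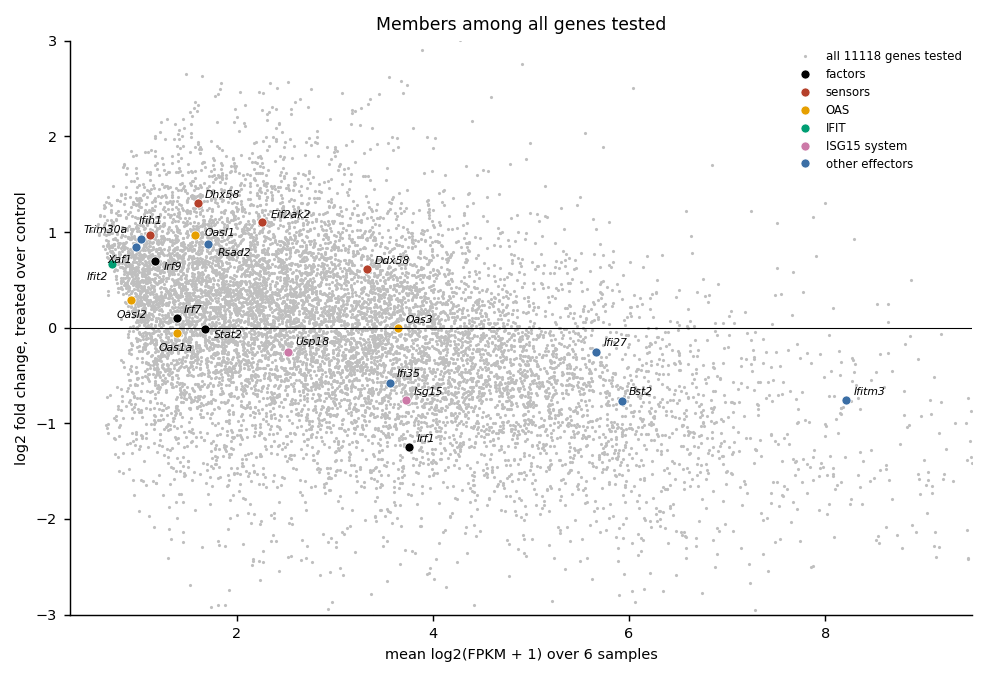
Log2 fold change, treated over control, against mean log2(FPKM + 1) over the 6 samples for all genes tested (grey) and the 22 tested genes of the interferon response (coloured by role); 104 genes lie outside the axes. Sensors sit above 0 at low to middle levels, and the abundant effectors sit below 0, as does the bulk of the abundant genes.

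Of 77 other genes of the pathway, 47 were tested, of which 16 rose, 9 fell and 22 were not called, to be read beside the same 27.9% and 28.3%. Of 11 genes of sensing and interferon induction 10 were tested, of which 5 rose and none fell. Mavs, the mitochondrial adaptor of RIG-I and MDA5, had 23.9, 21.1 and 22.2 FPKM in treated samples, against 12.3, 14.04 and 12.7 FPKM in controls (1.72-fold, 0.74 ± 0.11 SE, limma adjusted p = 0.00211). Tbk1, the kinase that activates IRF3, had 10.3, 10.3 and 9.36 FPKM in treated samples, against 5.68, 5.77 and 5.74 FPKM in controls (1.74-fold, 0.71 ± 0.10 SE, limma adjusted p = 0.00164). Irf3 had 4.58, 4.21 and 4.33 FPKM in treated samples, against 2.04, 1.503 and 2.24 FPKM in controls (2.27-fold, 0.88 ± 0.13 SE, limma adjusted p = 0.001995). For all 3 the groups stood apart. Trim25, the ubiquitin ligase that activates RIG-I, was picked out after its values were seen, at 23.8, 22.5 and 22.6 FPKM in treated samples, against 4.92, 6.39 and 3.96 FPKM in controls (4.51-fold, limma adjusted p = 0.000372, and a detrended log2 fold change of 1.99).

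On the DNA-sensing side, Mb21d1 (also Cgas), the enzyme that makes cyclic GMP-AMP on cytosolic DNA, had 1.03, 1.24 and 1.18 FPKM in treated samples, against 0.232, 0.191 and 0.145 FPKM in controls. It entered the test through the treated libraries alone (6.08-fold, limma adjusted p = 0.000581, and a detrended 0.14, limma adjusted p = 0.179). Tmem173 (STING), the receptor of its product, was not called at 31.6, 30.3 and 30.7 FPKM in treated samples, against 32.6, 42.1 and 27.7 FPKM in controls (limma adjusted p = 0.571).

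Of 6 receptor and kinase genes 5 were tested, of which 1 fell and none rose. Ifnar2, a chain of the receptor, had 4.88, 5.93 and 5.42 FPKM in treated samples, against 7.48, 12.2 and 8.17 FPKM in controls (1.71-fold lower, -0.66 ± 0.19 SE, limma adjusted p = 0.0257). Its call was lost without treated 1, treated 2 or treated 3 (limma adjusted p up to 0.0940). Ifnar1, Jak1, Tyk2 and Stat3 were not called, with log2 fold changes between -0.10 and 0.21 (limma adjusted p between 0.274 and 0.7295).

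Of 7 genes that restrain the response 6 were tested, of which 2 rose and 3 fell. Socs1 and Socs3, inhibitors of cytokine receptors, fell. Socs1 had 3.06, 2.38 and 2.16 FPKM in treated samples, against 6.67, 5.58 and 5.49 FPKM in controls (2.33-fold lower, -0.97 ± 0.14 SE, limma adjusted p = 0.00193). Socs3 had 21.3, 22.3 and 19.4 FPKM in treated samples, against 58.9, 51.3 and 69.2 FPKM in controls (2.85-fold lower, -1.46 ± 0.14 SE, limma adjusted p = 0.000586). The groups did not overlap, and the detrended log2 fold changes were -0.95 and -0.77, both called. Adar, which edits duplex RNA of the cell itself and was picked out after its values were seen, had 5.28, 5.47 and 5.71 FPKM in treated samples, against 1.67, 2.01 and 1.30 FPKM in controls (3.31-fold, limma adjusted p = 0.000580, and a detrended log2 fold change of 1.05).

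**Figure D5:**
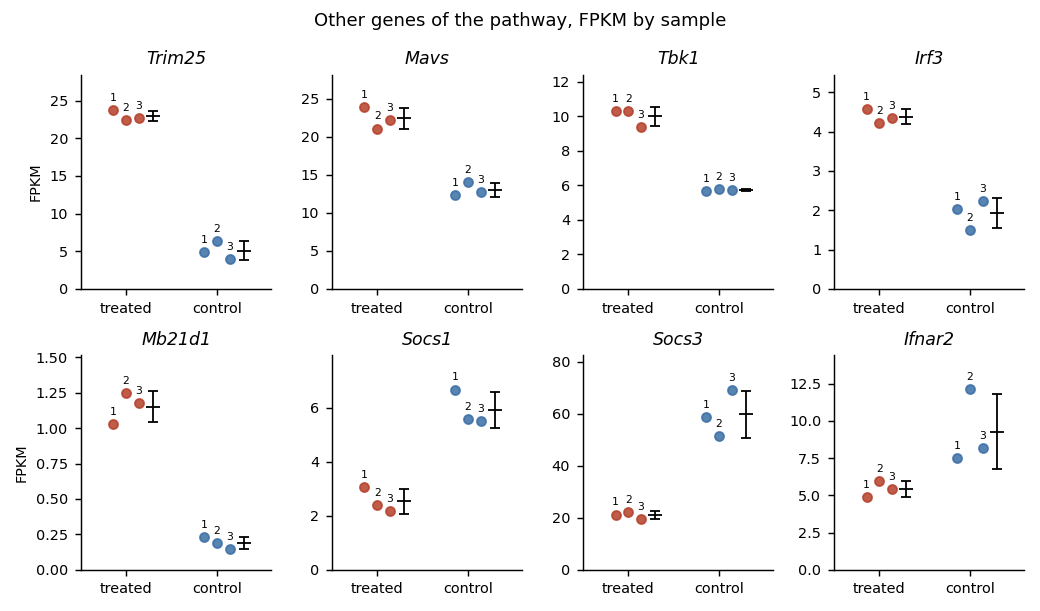
FPKM of 8 other genes of the pathway in 3 treated (red) and 3 control (blue) samples; digits are replicate numbers, and the black bar is the mean with its SD. Trim25, Mavs, Tbk1, Irf3 and Mb21d1 lie higher and Socs1, Socs3 and Ifnar2 lower in treated samples, with no overlap of the groups in any of the 8. For Mb21d1 the lack of overlap follows from the filter, which it passed through the treated libraries alone.

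Of 31 further interferon-stimulated genes 24 were tested, of which 8 rose and 5 fell. Irgm1, a GTPase of the response to intracellular pathogens, had 1.97, 1.92 and 2.17 FPKM in treated samples, against 0.275, 0.472 and 0 FPKM in controls (limma adjusted p = 0.00104). Trim21, an antibody receptor of the cytosol, had 1.58, 1.54 and 1.64 FPKM in treated samples, against 0.620, 0.255 and 0.506 FPKM in controls (3.45-fold, limma adjusted p = 0.00182). Both entered the test through the treated libraries alone. Parp12, an ADP-ribosyltransferase, was 1.89-fold higher (limma adjusted p = 0.00211), with 3.82, 4.02 and 3.49 FPKM in treated samples, against 1.99, 1.86 and 2.14 FPKM in controls. Tor3a, of the torsin family, had 13.8, 13.5 and 13.8 FPKM in treated samples, against 20.8, 21.6 and 21.3 FPKM in controls (1.55-fold lower, limma adjusted p = 0.00254). Psmb8, a subunit of the immunoproteasome, had 12.9, 15.2 and 12.6 FPKM in treated samples, against 39.2, 28.7 and 55.8 FPKM in controls (3.03-fold lower, limma adjusted p = 0.00324). For these genes the groups did not overlap, which for Irgm1 and Trim21 follows from the filter. In the detrended fit Irgm1 (0.67), Parp12 (0.33), Tor3a (-0.44) and Psmb8 (-1.18) remained called, and Trim21 was not (0.22, limma adjusted p = 0.175). Isg20, an exonuclease, was 1.98-fold lower (limma adjusted p = 0.003998), and not called in the detrended fit (-0.08, limma adjusted p = 0.774).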

How the data were processed

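Each deposited file lists FPKM of its sample, per the file headers. For the aligner, counter, build, annotation and strand, each is not given in the sources used here. GENCODE M21 (GRCm38) supplied symbols, exon lengths and coordinates for 52073 of 56748 identifiers. Reads were worked back from FPKM and exon length, and of values under 200 reads between 92.4% and 93.4% fell within 0.02 of a whole number. Even numbers made up between 62.2% and 70.1% of counts from 1 to 10, so both ends of a pair often counted, and a count of 0 was taken to allow 3 pairs (6 reads). Reads for Mx1 and Isg15 did not come out whole and are not given. Those for Irf1 and Ifitm3, also not given, lay up to 0.495 and 0.476 from a whole number. PCR reads without molecular identifiers make such limits cover counting error only. The deposited FPKM hold the typical gene level between groups, with a median log2 fold change of -0.01.

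Groups came from the labels. limma 3.58.1 (R 4.3.3, trended prior variance, group as the only term) was fitted on log2(FPKM + 1) over 11118 genes, those reaching 1 FPKM in 3 or more libraries; fold changes on this scale understate those of scarce genes, so ratios of mean FPKM are given too. A count model, listed for files of counts or values that give back whole reads, was not run, since not all values came out whole. No replicates of a group agreed within sampling noise (chi-square per degree of freedom between 11.0 and 524 over pairs). The genes, lists and roles were chosen with earlier results of these data known. Every gene of the list is named, the receptor, kinase and main signalling genes of the pathway by a written list, and of the further interferon-stimulated genes the 3 with the smallest p in each direction. Alternatives were the pseudocount, the filter, the scaling, weights, a replicate block and leaving out each library. Some genes of the lists are not reported here.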

Additional observations from a re-analysis of the deposited data

How the results depend on the processing

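The 22 tested genes were recomputed under 17 alternatives, which gave 359 values, of which 295 kept direction and side of the threshold, 22 lost a call in the same direction, 9 gained one and 33 changed sign. Counts of the 38 genes moved as follows. With a minimum of 5 FPKM 2 were higher, with 1 common total (TPM) 18 were higher and 0 lower, with library size 1 was lower, and in the detrended fit (GC content, exon length and level) 5 were higher and 2 lower. Leaving out 1 library gave 8 to 11 higher and 3 to 7 lower, 7 being without control 2, and for all genes 2279 to 3634 higher and 2140 to 3778 lower. Their median was 0.39 and 0.059 with a pseudocount of 0.1 and 5, 0.10 with no filter, -0.58 with a minimum of 5 FPKM, 0.047 with a mean of at least 1 FPKM, 1.07 with TPM and 0.67 with library size, and between 0.18 and 0.30 with a library left out. Library size and TPM move the median of all genes to 0.60 and 0.92, and fold changes there are to be read against it: less that median, Irf7 and Oas3 turned under library size and Oas3 under TPM. Of all genes, 1385 were higher with a minimum of 5 FPKM, 7088 higher and 734 lower with TPM and 6032 and 1149 with library size. Other pathway genes gave 7 higher with that minimum, 33 and 2 with TPM and 30 and 2 with library size, and 13 to 19 higher and 6 to 11 lower without 1 library. Sign changes under TPM were Stat2 (0.84), Oas1a (0.77), Oas3 (0.97), Isg15 (0.18), Usp18 (0.65), Bst2 (0.22), Ifitm3 (0.24), Ifi27 (0.74) and Ifi35 (0.36). Under library size they were Stat2 (0.50), Oas1a (0.41), Oas3 (0.68), Usp18 (0.36), Ifi27 (0.48) and Ifi35 (0.11), and under quantile normalization Irf7 (-0.24), Oas3 (0.13), Oasl2 (-0.15), Bst2 (0.033), Ifitm3 (0.37) and Ifi27 (0.48). In the detrended fit they were Irf7 (-0.26), Oas3 (0.092), Oasl2 (-0.29), Ifit2 (-0.072), Bst2 (0.31), Ifitm3 (0.68) and Ifi27 (0.56). With 1 library left out Irf7 ran between -0.18 and 0.28, Oas1a between -0.23 and 0.17 and Oas3 between -0.084 and 0.12, each changing sign without control 3, and Stat2 between -0.056 and 0.038; Stat2 and Oas3 (0.034) changed sign without treated 3. The cause was not tested. The replicate block left 10 higher and 4 lower, with 2618 and 2669 of all genes; same-numbered samples had correlated deviations of -0.05, -0.11 and -0.14, so the numbers are not taken as pairs. The library-size and detrended alternatives were chosen after seeing the data. Reads under about 10 per library limit Ifnb1, Oas2, Ifit1, Ifit3 and Ifit3b. Such low counts also limit Rtp4 and Ifi44 in the controls, and Cmpk2, Zbp1, Mx1 and Ifi27l2a in some libraries. The count models listed as alternatives were not run.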

Other observations

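The other genes of antigen presentation in the list of further interferon-stimulated genes were picked out after their values were seen, and 1 was called higher, 1 lower and 3 not. Nlrc5, the activator of class I genes, had 2.74, 2.43 and 2.30 FPKM in treated samples, against 1.08, 1.46 and 0.869 FPKM in controls (limma adjusted p = 0.00468), and was not called in the detrended fit (0.33, limma adjusted p = 0.0771). Tap1, a chain of the peptide transporter, had 17.1, 15.4 and 15.7 FPKM in treated samples, against 24.1, 23.6 and 35.2 FPKM in controls (limma adjusted p = 0.0139, and 0.0556 at most without treated 2 or treated 3, where it was not called). Neither pair of groups overlapped. Tap2, the partner of Tap1, and Psmb9, a subunit of the immunoproteasome, were not called (limma adjusted p = 0.0749 and 0.263). B2m, the light chain of class I molecules, had 1375, 1415 and 1546 FPKM in treated samples, against 1565, 3460.1 and 255.5 FPKM in controls, a range within the controls far wider than the difference between the groups (limma adjusted p = 0.745).

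Control 3 was the highest control for 12 of the 22 tested genes of the interferon response and the lowest for 9, against 43.9% and 42.5% of all genes tested.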
